A study of Mus musculus with 12 samples.

Results

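The windows described here are 98 stretches of 1 Mb of the mouse genome (build mm9) that are crowded with peaks of histone H3 acetylated at lysine 9 (H3K9Ac). They were chosen by their H3K9Ac peak numbers: every whole window, starting at a multiple of 1 Mb on chromosomes 1 to 19 and X, was selected on holding at least 15 peaks in each of the 2 H3K9Ac lists, with a peak assigned to the window of its midpoint. The rule took 98 of 2628 whole windows (3.73%). These dense windows held 5637 of the 52819 peaks of the 6 lists. Because H3K9Ac chose the windows, H3K9Ac numbers are given as a description, and the results concern BRWD1 and H3S10pK14Ac, which the rule did not use.

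The lists come from ChIP-seq, the sequencing of chromatin fragments pulled down with an antibody. The cells were small pre-B cells of C57BL/6 bone marrow, sorted by the surface profile Lin-B220+CD43-IgM-FSClow. Antibodies to BRWD1 (E-15 in the labels), to H3K9Ac and to histone H3 with both phosphoserine 10 and acetyllysine 14 (H3S10pK14Ac) were used, with 2 replicates and 2 peak lists per antibody. No genotype or age is given for these 6 samples, and nothing in the labels ties replicates of different antibodies to the same animals. The 2 input DNA samples and the 4 ATAC-seq samples (wild type and Brwd1-Mut, 2 each) of the 12 in the series are not analysed here. Peak lists carry no levels of marker genes, so the labelled cell type could not be checked.

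Small pre-B cells have left the cell cycle after an expansion phase and rearrange immunoglobulin light chain genes. H3K9Ac is deposited by histone acetyltransferases at active promoters and enhancers. BRWD1 is a nuclear protein with bromodomains, which bind acetylated lysines, and WD repeats. It is known in small pre-B cells for its part in opening the kappa light chain locus for recombination. H3S10pK14Ac combines a phosphorylation made by signalling and mitotic kinases with an acetylation, and is associated with the induction of genes.

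The 6 lists differed in size, and their read depth is unknown. Within whole windows BRWD1 had 5782 and 9916 peaks in replicates 1 and 2, H3K9Ac had 10056 and 16366, and H3S10pK14Ac had 98 and 10601. The list of H3S10pK14Ac replicate 1 stands apart with so few peaks that 8 of them lay in dense windows, so values for that mark are given for each list alone. The score of a peak is the authors' significance on a −log10 scale, and no listed peak scored under 5. Peaks of BRWD1 replicate 1 were narrower than those of replicate 2 (median 73 against 195.5 bp in dense windows).

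Dense windows lay on 18 of 20 chromosomes, and none were on chromosomes 12 and X. Chromosome 11 held 12 of them, which was 9.92% of its windows. On chromosome 19 the share was 9.84%, on chromosome 17 it was 7.37% and on chromosome 7 it was 7.24%. The lowest share among the 18 chromosomes was 0.806%, on chromosome 14. Every dense window is named here by the megabase at which it starts. Chromosome 1 had 89, 135, 173, 182 and 193. Chromosome 2 had 3, 26, 32, 101, 119 together with the window just before it, 166 and 167, and chromosome 3 had 95 and 96. On chromosome 4 the starts were 32, 44, 129, 132, 135 and 140, and on chromosome 5 they were 66, 108, 123, 124 and 149. Chromosome 6 had 72, 86, 87, 99, 113, 120 and 145. On chromosome 7 they were 4, 16, 26, 29, 52, 80, 87, 132, 133, 134 and 139. Chromosome 8 had 26, 73, 74, 86, 108, 125 and 129, chromosome 9 had 32, 44, 70 and 107, and chromosome 10 had 59, 80, 116 and 127. Chromosome 11 had 51, 60, 68, 69, 70, 86, 87, 95, 97, 98, 106 and 115. On chromosome 13 the starts were 23, 24, 43, 51, 54, 67 and 112, and chromosome 14 had 32 alone. Chromosome 15 had 79 and 81, and chromosome 16 had 4 and 91. Chromosome 17 had 5, 24, 29, 31, 34, 35 and 71, chromosome 18 had 35 and 36, and chromosome 19 had 4, 5, 6, 10, 29 and 32.

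Most dense windows stood alone. They formed 81 runs, of which 67 were a single window, 11 were pairs of neighbours and 3 were runs of 3 windows. Thus 31 of the 98 dense windows (31.6%) had a dense neighbour, against 159 of the 2530 other windows. A dense neighbour was therefore more frequent for dense windows than for other windows. In a further 3 cases 2 dense windows were separated by 1 other window. The runs of 3 lay at 132 to 135 Mb of chromosome 7, at 68 to 71 Mb of chromosome 11 and at 4 to 7 Mb of chromosome 19. The chromosome 7 run held 64 H3K9Ac peaks in each list, with 3 and 17 BRWD1 peaks (replicates 1 and 2) and 18 H3S10pK14Ac peaks in replicate 2. The chromosome 11 run held 55 and 68 H3K9Ac peaks, 9 and 27 BRWD1 peaks and 1 and 18 H3S10pK14Ac peaks. The chromosome 19 run held 65 and 73 H3K9Ac peaks, 2 and 12 BRWD1 peaks and 10 H3S10pK14Ac peaks in replicate 2. The run on chromosome 11 thus carried the most BRWD1 peaks of the 3 in both lists, with the fewest H3K9Ac peaks in replicate 1.

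H3K9Ac numbers, which chose the windows, are shown in the plot of both H3K9Ac lists. In dense windows they ran from 15 to 37 in both lists, with a median of 19 in replicate 1 and 22 in replicate 2. Other windows had medians of 2 and 4. After peaks of both lists within 1 kb were merged, a dense window held 14 to 33 separate regions, with a mean of 22.6 against 6.16 in other windows. Gaps of up to 1 kb between neighbouring H3K9Ac peaks made up 28.0% and 26.4% of gaps in dense windows (replicates 1 and 2), against 21.3% and 15.6% elsewhere. The H3K9Ac peaks of either list covered 13.5 kb of a dense window on average and 2.43 kb of another window. The edge of the rule was not a gap: 10 dense windows had exactly 15 as their smaller H3K9Ac number, and 35 other windows had exactly 14. The windows with 15 averaged 2.20 and 6.10 BRWD1 peaks in replicates 1 and 2, and those with 14 averaged 2.37 and 4.66. Replicate 1 alone would have taken 120 windows, of which 98 (81.7%) also had 15 peaks in replicate 2. Replicate 2 alone would have taken 276, of which 98 (35.5%) also passed in replicate 1.

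**Figure D1:**
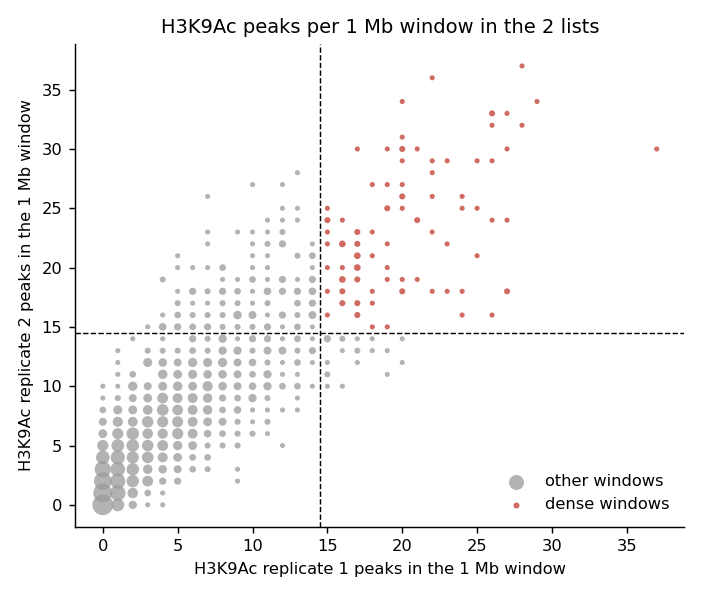
H3K9Ac peaks per 1 Mb window in replicate 1 (x axis) and replicate 2 (y axis), with larger dots where more windows share a position and dashed lines just below 15 peaks. The 98 dense windows, in red, fill the upper right corner by construction and run into the other windows without a gap.

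BRWD1 peaks were more numerous in dense windows than elsewhere in both lists, by unequal amounts. In BRWD1 replicate 2 a dense window held 6.31 ± 2.73 peaks (SD over 98 windows) and another window 3.68 ± 2.48, a density ratio of 1.72. In BRWD1 replicate 1 the values were 2.54 ± 1.69 and 2.19 ± 1.92, a ratio of 1.16. The medians were 6 against 3 in replicate 2, and 2 against 2 in replicate 1. The windows overlapped widely in both lists. Dense windows ranged from 1 to 12 BRWD1 peaks in replicate 2 and from 0 to 6 in replicate 1. Other windows ranged from 0 to 34 and from 0 to 48, and both of these highest numbers came from the same window, 3 to 4 Mb of chromosome 9. The H3K9Ac ratios of the same windows, fixed by the rule, were 6.29 and 4.18. With the 97 windows that had no peak in any list left out, the BRWD1 ratios were 1.12 and 1.65 in replicates 1 and 2.

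A BRWD1 peak in both lists was found in 85 of 98 dense windows (86.7%), against 81.2% of all whole windows. This share is close to the background: BRWD1 peaks of both lists were found in most windows of the genome. A count that asks for more than the usual number separated the windows further. In 39 dense windows (39.8%) the BRWD1 number was above the median of all windows in both lists (more than 2 peaks in replicate 1 and more than 3 in replicate 2), against 23.1% of all windows. In 3 dense windows (3.06%) it was below the median in both lists, against 18.2% of all windows. Dense windows without any BRWD1 peak occurred in replicate 1, in 13 cases, and in no case in replicate 2. A replicate 1 peak was present in 86.7% of dense windows, close to the 83.9% of all windows. For the larger list of replicate 2 the shares were 100% and 92.5%.

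H3S10pK14Ac was also denser in dense windows, and the ratio of its larger list lay between those of the 2 BRWD1 lists. Replicate 2 had 5.20 ± 2.84 peaks in a dense window and 3.99 ± 2.99 in another (ratio 1.30, medians 5 and 4, ranges 0 to 15 and 0 to 25). In 54 dense windows (55.1%) the number was above the median of 4 of all windows, against 39.3% of all windows. Replicate 1 had 8 peaks in 8 dense windows, 0.0816 per window against 0.0356 elsewhere. That ratio of 2.29 rests on 8.16% of 98 peaks (95% Wilson interval 4.19 to 15.3, counting error only).

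**Figure D2:**
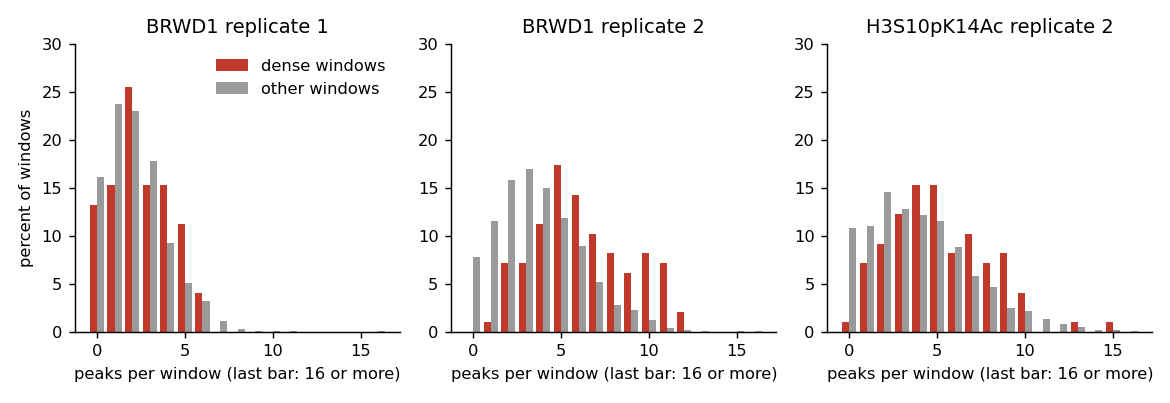
Percent of windows (y axis) by peaks per window (x axis) in dense windows (red, n = 98) and other windows (grey, n = 2530) for BRWD1 replicates 1 and 2 and H3S10pK14Ac replicate 2. The 2 groups overlap in each panel, and the shift to higher numbers is widest in BRWD1 replicate 2 (median 6 against 3).

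The comparison of the 2 antibodies asked whether BRWD1 or H3S10pK14Ac gained more in dense windows. The mean ratio of the 2 lists was 1.44 for BRWD1 (1.16 and 1.72) and 1.80 for H3S10pK14Ac (2.29 and 1.30). Over the whole genome all 4 lists had a ratio above 1. The log2 ratio of BRWD1 minus that of H3S10pK14Ac was −0.29, and an exact two-sided permutation test gave p = 0.667, where 2 lists against 2 cannot go below 1 in 3. The sign of this difference rests on the short list: without H3S10pK14Ac replicate 1 it was 0.11. No order between the 2 antibodies could be set at this number of lists, and the p-value measures the spread between lists, which may be technical.

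The ratios were recomputed within chromosomes, since chromosomes differed in their share of dense windows. BRWD1 replicate 2 was denser in dense windows on 17 of 18 chromosomes, with a median ratio of 1.62, a lowest of 1.00 on chromosome 15 and a highest of 2.38 on chromosome 18. BRWD1 replicate 1 was denser on 13 of 18, with a median of 1.21, from 0.347 on chromosome 9 (4 dense windows) to 1.77 on chromosome 3. H3S10pK14Ac replicate 2 had a ratio above 1 on 12 of 18 chromosomes, with a median of 1.07, from 0.738 on chromosome 14 to 1.82 on chromosome 17. H3S10pK14Ac replicate 1, with its 8 peaks in dense windows, was above 1 on 4 of the 17 chromosomes that allowed a ratio, with a median of 0. The median within chromosomes was close to the genome-wide ratio for both BRWD1 lists, and it was nearer to 1 than the genome-wide ratio for H3S10pK14Ac replicate 2.

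Grading all windows by their smaller H3K9Ac number showed that 1 of the 3 larger lists rose into the dense classes and 2 did not. BRWD1 replicate 2 rose at every step, from 2.27 peaks per window where that number was 0 to 3.93 at 1 to 4, 4.76 at 5 to 9, 5.72 at 10 to 14, 6.18 at 15 to 19 and 6.53 at 20 or more. BRWD1 replicate 1 went from 1.55 at 0 to 3.04 at 10 to 14, and had 2.52 and 2.58 in the 2 dense classes. H3S10pK14Ac replicate 2 went from 2.21 at 0 to 5.82 at 10 to 14, and had 5.39 and 4.89 in the dense classes. In 2 of the 3 lists, therefore, the highest class lay just below the dense windows. Part of this rise involves windows with few peaks of any kind: 97 whole windows had no peak in any list. The class of 10 to 14 also holds an extreme window, 3 to 4 Mb of chromosome 9. It had 48 and 34 BRWD1 peaks and 25 H3S10pK14Ac peaks in replicate 2. The part of this window in the class means was not tested.

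**Figure D3:**
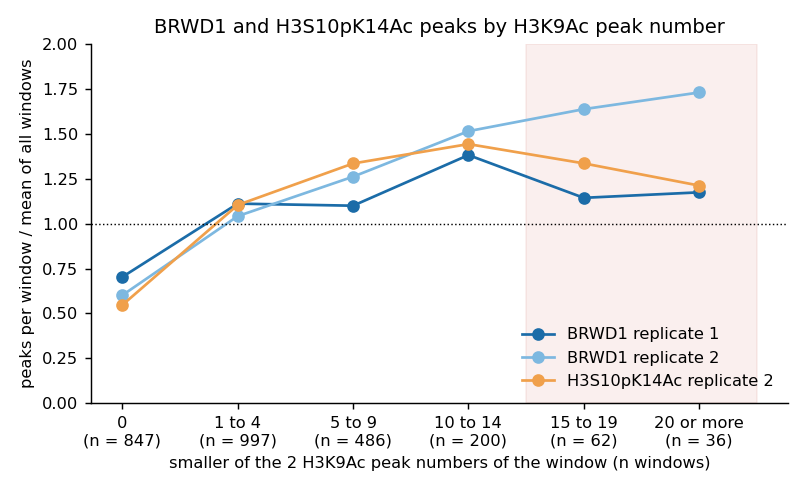
Mean peaks per window divided by the mean of all windows (y axis) in 6 classes of windows by their smaller H3K9Ac peak number (x axis, with the number of windows), with the dense classes shaded. BRWD1 replicate 2 rises through the dense classes, whereas BRWD1 replicate 1 and H3S10pK14Ac replicate 2 are highest at 10 to 14. That class includes 3 to 4 Mb of chromosome 9, with 48 BRWD1 replicate 1 peaks.

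Across the 2531 windows with a peak of any list, which share libraries and position, BRWD1 replicate 2 and H3K9Ac replicate 2 numbers had a Pearson r of 0.47. Among the 98 dense windows it was 0.15. BRWD1 replicate 1 and H3K9Ac replicate 1 had 0.13 and −0.06 in the same order, and H3S10pK14Ac replicate 2 and H3K9Ac replicate 2 had 0.41 and −0.08. The 2 BRWD1 lists had 0.31 over all these windows and 0.07 over the dense ones, with rank correlations (Spearman rho) of 0.23 and 0.06. All these windows include 3 to 4 Mb of chromosome 9, with 48 and 34 BRWD1 peaks, and its part in the Pearson values was not tested. H3S10pK14Ac replicate 2 kept more of its relation to BRWD1. Its Pearson r was 0.27 and 0.20 for BRWD1 replicate 1 and 0.42 and 0.19 for BRWD1 replicate 2. Within the dense windows the H3K9Ac number therefore gave little order to BRWD1, and the 2 BRWD1 lists ranked these windows differently. Dense windows also span a narrower range of H3K9Ac numbers. BRWD1 numbers there varied little beyond counting error, with a variance of 1.12 and 1.18 times the mean in replicates 1 and 2. Such counts cannot show whether the 2 lists truly order the windows differently. The part of the range and of counting error in the lower coefficients was not tested.

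Around dense windows the numbers fell off at different rates. The 159 other windows that touch a dense window had 1.61 and 1.50 times the mean H3K9Ac number of all windows in replicates 1 and 2, against 5.25 and 3.74 in the dense windows themselves. Of these neighbours, 31 (19.5%) had a smaller H3K9Ac number of 10 to 14, against 7.91% of all other windows. BRWD1 replicate 2 went from 1.67 times its mean in dense windows to 1.24 in neighbours and 1.10 at 2 windows away. BRWD1 replicate 1 went from 1.15 to 1.03 and 1.10. H3S10pK14Ac replicate 2 did not peak in the dense windows: it had 1.29 there, 1.36 in the neighbours and 1.28 at 2 windows away. From 3 windows on, BRWD1 and H3S10pK14Ac in these 3 lists were between 0.922 and 1.04 times their means.

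**Figure D4:**
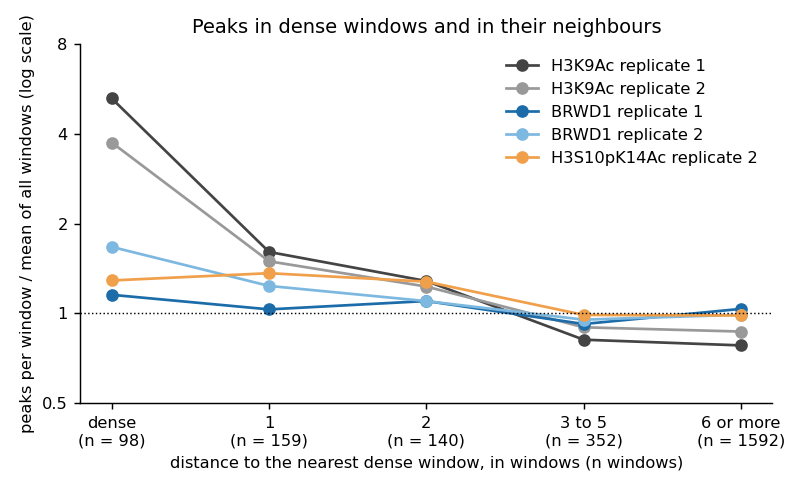
Mean peaks per window divided by the mean of all windows (y axis, log scale) against distance to the nearest dense window in windows (x axis, with the number of windows) on the 18 chromosomes that hold one. H3K9Ac falls steeply from the dense windows, BRWD1 replicate 2 falls from 1.67 to 1.24, and H3S10pK14Ac replicate 2 is as high in neighbours (1.36) as in dense windows (1.29).

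BRWD1 peaks were split by whether they overlapped an H3K9Ac peak. The rule itself raises such overlap, since H3K9Ac covers 5.57 times as much of a dense window as of another window, so these shares are descriptions and support nothing about where BRWD1 lies. In dense windows 62 of 249 BRWD1 replicate 1 peaks overlapped an H3K9Ac peak of either list by at least 1 bp (24.9%, 95% Wilson interval 19.9 to 30.6), against 12.6% in other windows. For BRWD1 replicate 2 it was 195 of 618 (31.6%, 28.0 to 35.3) against 11.3%. BRWD1 peaks at H3K9Ac were 2.29 and 4.79 times as dense in dense windows as elsewhere in replicates 1 and 2, whereas BRWD1 peaks away from H3K9Ac were 0.998 and 1.32 times as dense. The ratios at H3K9Ac were both below the 5.57-fold difference in covered length. In replicate 1 a dense window had 0.354 more BRWD1 peaks than another window, and 0.357 more at H3K9Ac. In replicate 2 it had 2.63 more, of which 1.57 (59.8%) were at H3K9Ac. H3S10pK14Ac replicate 2 had 82 of 510 peaks at H3K9Ac (16.1%) against 7.35%, with ratios of 2.85 at H3K9Ac and 1.18 away from it.

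**Figure D5:**
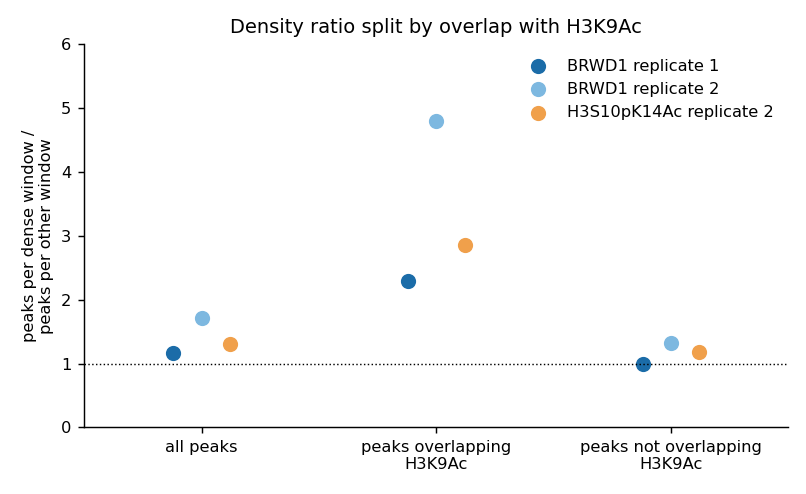
Peaks per dense window divided by peaks per other window (y axis) for all peaks, for peaks that overlap an H3K9Ac peak of either list and for the remaining peaks. Ratios at H3K9Ac are 2.29, 4.79 and 2.85, and ratios away from it are 0.998, 1.32 and 1.18, for BRWD1 replicates 1 and 2 and H3S10pK14Ac replicate 2.

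Measured per H3K9Ac peak instead of per window, BRWD1 was on average not more frequent in dense windows. A mean of 4.61% of the H3K9Ac peaks there overlapped a BRWD1 peak, against 5.88% elsewhere, over the 4 combinations of lists. The share was lower in dense windows in 3 of the 4: for H3K9Ac replicate 1 it was 2.84% against 7.15% with BRWD1 replicate 1 and 7.41% against 8.53% with BRWD1 replicate 2. For H3K9Ac replicate 2 it was 1.53% against 2.23% with BRWD1 replicate 1, and 6.66% against 5.62% with BRWD1 replicate 2. H3S10pK14Ac was found on a mean of 1.60% of H3K9Ac peaks in dense windows and 2.37% elsewhere, lower in 4 of 4 combinations. Per length the result had the same direction. Per 100 kb covered by H3K9Ac there were 4.68 BRWD1 replicate 1 peaks against 11.4 elsewhere, and 14.7 BRWD1 replicate 2 peaks against 17.1. A dense window therefore held more BRWD1 peaks at H3K9Ac than another window, but fewer per length of H3K9Ac. The H3K9Ac length and the number of H3K9Ac peaks were set by the rule, so these rates are descriptions without a test.

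BRWD1 peaks found in both replicates were counted apart from those in 1 list. Of the BRWD1 replicate 1 peaks in dense windows 33 of 249 overlapped a replicate 2 peak (13.3%, 9.59 to 18.0), against 11.7% elsewhere, and of the replicate 2 peaks 33 of 618 (5.34%, 3.83 to 7.40), against 6.70%. These shares were not distinguishable at these counts. Such a peak was present in 25 dense windows (25.5%), against 20.7% of all windows. Of the 33 replicate 1 peaks found again, 23 (69.7%, 52.7 to 82.6) lay at H3K9Ac, and outside dense windows the share was 70.2%. Among peaks of BRWD1 replicate 1 alone the share at H3K9Ac was 18.1% in dense windows and 4.99% elsewhere, and among peaks of BRWD1 replicate 2 alone it was 29.2% and 7.07%. The shares among single-list peaks rise with the H3K9Ac cover that the rule selects, and whether the 2 kinds of peak differ beyond that was not tested. In dense windows the replicate 1 peaks found again had a median score of 11.1, and those of replicate 1 alone had 5.47.

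Among peaks with a high score the lists went different ways. BRWD1 peaks scored 10 or more were 1.35 and 1.63 times as dense in dense windows in replicates 1 and 2 (22 and 23 peaks). H3S10pK14Ac replicate 2 had 3 such peaks in dense windows, 0.588% of its 510 peaks there (0.200 to 1.72), against 2.05% of its peaks elsewhere (1.79 to 2.35), a density ratio of 0.374. They lay in 3 dense windows (3.06%), against 6.93% of all windows. H3S10pK14Ac replicate 1 had 1 such peak in dense windows, a ratio of 3.69, so the 2 lists of this mark fell on opposite sides of 1. These intervals do not overlap, but the peaks of 1 list are not replicates and the difference was not tested over lists.

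The strongest BRWD1 pair in dense windows lay at 23 to 24 Mb of chromosome 13. Its replicate 1 peak spanned 23488917 to 23489000 (score 69.97) and its replicate 2 peak 23488828 to 23489088 (score 50.03). It was the position of rank 10 by score in BRWD1 replicate 1 and of rank 15 in replicate 2. The next was at 115275081 to 115275172 of chromosome 11 (scores 67.75 and 32.12), followed by 68924412 to 68924515 of chromosome 11 (43.51 and 25.82) and 4911638 to 4911761 of chromosome 7 (43.91 and 22.38). Of the 33 pairs, 10 scored 10 or more in both lists, and all 10 lay at H3K9Ac. The share among equally strong pairs outside dense windows was not computed, so this count is a description. For replicate 1 peaks of pairs of any score the share was 69.7%, against 70.2% outside dense windows. Across the 33 replicate 1 peaks of these pairs, 11 overlapped H3S10pK14Ac (33.3%, 19.8 to 50.4), against 39.7% of such peaks outside dense windows.

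Regions with a peak in all 6 lists numbered 30 in the genome, and 3 of them (10%) lay in dense windows. The first spanned 23488769 to 23489151 of chromosome 13, the second 115274701 to 115275323 of chromosome 11 and the third 4911452 to 4911913 of chromosome 7. Each held one of the BRWD1 pairs just named. The chromosome 13 region was also strong in H3S10pK14Ac replicate 2, with a score of 32.92, where the other 2 regions scored 6.86 and 5.56. Of the 147 regions shared by the 5 larger lists 7 (4.76%) lay in dense windows. All these regions hold H3K9Ac peaks, which the rule used, and 12.5% of all merged H3K9Ac regions lay in dense windows, so the shares are descriptions.

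The window with the most H3K9Ac peaks by its smaller number was 95 to 96 Mb of chromosome 3, with 37 and 30. It held 3 and 9 BRWD1 peaks. At 106 to 107 Mb of chromosome 11 there were 29 and 34 H3K9Ac peaks and 5 and 6 BRWD1 peaks. The window at 52 to 53 Mb of chromosome 7 had 28 and 37 H3K9Ac peaks and 1 and 8 BRWD1 peaks, and that at 134 to 135 Mb had 28 and 32 with 1 and 4. At 81 to 82 Mb of chromosome 15 there were 27 and 33 H3K9Ac peaks and 2 and 6 BRWD1 peaks. The window at 129 to 130 Mb of chromosome 8 had 26 and 29 H3K9Ac peaks and 0 and 4 BRWD1 peaks, and that at 80 to 81 Mb of chromosome 10 had 26 and 33 with 2 and 2. The windows richest in H3K9Ac thus ran from 4 to 13 BRWD1 peaks over both lists, and the chromosome 8 and chromosome 10 windows had the fewest of these 10.

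The dense windows with the most and the fewest BRWD1 peaks were then listed. The window at 66 to 67 Mb of chromosome 5 had 5 and 11 BRWD1 peaks with 19 H3K9Ac peaks in each list. At 68 to 69 Mb of chromosome 11 there were 6 and 10 BRWD1 peaks with 17 and 20 H3K9Ac peaks. The windows at 59 to 60 Mb of chromosome 10 (4 and 11), 115 to 116 Mb of chromosome 11 (5 and 10) and 87 to 88 Mb of chromosome 7 (5 and 10) followed, with a sum of 15 that 86 to 87 Mb of chromosome 6 (3 and 12) also reached. None of these 6 windows belonged to the 10 richest in H3K9Ac. At the low end, 86 to 87 Mb of chromosome 11 and 125 to 126 Mb of chromosome 8 each had 0 and 2 BRWD1 peaks. The windows at 4 to 5 Mb of chromosome 19 (1 and 2) and 26 to 27 Mb of chromosome 2 (2 and 1) were next, and 6 windows tied at a sum of 4. H3S10pK14Ac was most frequent at 5 to 6 Mb of chromosome 17, with 15 peaks in replicate 2, in a window with 5 and 2 BRWD1 peaks. It had 13 at 145 to 146 Mb of chromosome 6, and 10 each at 31 to 32 and 71 to 72 Mb of chromosome 17, 193 to 194 Mb of chromosome 1 and 133 to 134 Mb of chromosome 7.

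Outside the dense windows, 3 to 4 Mb of chromosome 9 had more BRWD1 peaks than any dense window in both lists, 48 and 34. It held 10 and 27 H3K9Ac peaks, so it missed the rule in replicate 1, and 25 H3S10pK14Ac peaks in replicate 2. It was singled out after its values were seen.

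A few loci were placed by general knowledge of their mm9 position, to the megabase, since no mm9 gene annotation was used here and peaks carry no gene names. The H2 complex, the mouse major histocompatibility complex with its antigen presentation genes, lies partly in a pair of dense windows on chromosome 17. The window at 34 to 35 Mb had 26 and 33 H3K9Ac peaks and 2 and 8 BRWD1 peaks, and that at 35 to 36 Mb had 26 and 32 with 1 and 6. The last megabase set for the complex, 36 to 37, had 8 and 18 H3K9Ac peaks and was not dense. The Hist1 cluster of histone genes on chromosome 13 was dense at 23 to 24 Mb, with 27 and 30 H3K9Ac peaks, 4 and 9 BRWD1 peaks and 8 H3S10pK14Ac peaks in replicate 2. The rest of the cluster as set here, at 21 to 22 Mb (13 and 9 H3K9Ac peaks) and 22 to 23 Mb (5 and 8), was not dense. The window that follows the cluster, at 24 to 25 Mb, was dense, with 16 and 24 H3K9Ac peaks.

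No window at an immunoglobulin locus was dense. The Igk window with the most H3K9Ac peaks, 70 to 71 Mb of chromosome 6, had 9 and 14, with 2 and 5 BRWD1 peaks and 11 H3S10pK14Ac peaks in replicate 2. At the heavy chain locus Igh, the window of chromosome 12 that ends at 115 Mb had 12 and 24 H3K9Ac peaks and 7 and 9 BRWD1 peaks. The lambda light chain window at 19 to 20 Mb of chromosome 16 had 11 and 24 H3K9Ac peaks and 2 and 2 BRWD1 peaks. The Igh and lambda windows passed 15 in H3K9Ac replicate 2 and missed it in replicate 1.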

How the data were processed

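ChIP-seq peak lists of 6 samples were used, 1 list per replicate. The submitters' processing notes name the build mm9 and, in no stated order, MACS2, Picard, BWA 0.7.5 and Trimmomatic 0.32. What each tool did, its settings and the input compared with each sample were not given in the sources used here. Each deposited list has 5 columns from the authors: chromosome, start, end, name and a score. The deposited score was read as −log10 of the peak's significance from a 5 after the letter p in the lists' names and because no value was under 5.01. Nothing states whether p or q values underlie it. Read depth is unknown, so precision is limited by the number of peaks and lists.

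Peaks were counted by midpoint in 1 Mb windows with Python 3.11.15, numpy 2.4.6 and scipy 1.17.1. The last window with a peak on each chromosome was left out, because its end is not known. Peaks on other sequence names (1 to 18 per list) were not counted in windows. A density ratio is the number of peaks per dense window divided by that per other window. Overlap means at least 1 bp. Shares have 95% Wilson intervals, which cover counting error only. Window counting and density ratios were checked on simulated peak lists, and overlaps and distances against a direct count. The exact tests were checked only on small sets of numbers with a known p-value. Antibodies were compared by an exact permutation test over lists. Windows named in the text were the 10 with the largest smaller H3K9Ac number, the 5 with the most and the 5 with the fewest BRWD1 peaks, the 5 with the most H3S10pK14Ac peaks (ties by the H3K9Ac sum; ties are stated in the text), the runs of 3, the windows with a region of all 6 lists, and the loci set from general knowledge. The windows, tests and lists were chosen with earlier results of these data known. Alternatives tried were other thresholds, window sizes and positions, other peak filters, left-out lists, within-chromosome ratios and a replicate block.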

Additional observations from a re-analysis of the deposited data

Results flagged for a closer look

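Peaks on the mitochondrial genome, which lies outside the windows and enters no comparison above, numbered 16 in BRWD1 replicate 2, 15 in H3K9Ac replicate 2 and 4 in H3S10pK14Ac replicate 2. These 3 lists were flagged because each number is above a fixed limit of 3, which takes no account of list size. No input list was analysed beside them. The lists of replicate 1 had 2, 0 and 0 in the same order of antibodies. All 3 replicate 2 lists were the larger list of their antibody.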

How the results depend on the processing

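The BRWD1 density ratio, as a mean of its 2 lists, stayed above 1 and within 1 SD of the lists under all 17 alternatives. That SD, 0.39, is wide, and leaving out a BRWD1 list gave 1.16 to 1.72. Leaving out 1 of 2 lists always moves their mean by less than this SD. Those alternatives therefore count as unchanged by construction. BRWD1 replicate 1 alone was 0.998 with peaks at H3K9Ac left out and 1.01 in windows of 2 Mb. The H3S10pK14Ac ratio, also as a mean of 2 lists, did so under 14 of 17. Single lists fell below 1: replicate 2 was 0.374 with peaks scored 10 or more, and replicate 1 was 0.982 as a mean over chromosomes. With that score filter replicate 1 was 3.69 on 1 peak in dense windows, and the mean of 2.03 counted as unchanged. The mean ratio was 2.54 with 20 H3K9Ac peaks as the threshold, 2.82 with peaks found in both replicates and 1.07 as a mean over chromosomes. Leaving out an H3S10pK14Ac list gave 1.30 to 2.29, which also counts as unchanged by construction. The difference between the antibodies turned to 0.019 with a threshold of 10, 0.14 in windows of 2 Mb with a threshold of 30, 0.33 with peaks scored 10 or more, 0.36 as a mean over chromosomes and 0.11 without H3S10pK14Ac replicate 1. It ranged from −0.70 to 0.11 when a list was left out. Nothing in the labels ties same-numbered lists together, and their deviations had correlations of −0.07 to 0.03 over windows. The replicate 2 list was the larger for every antibody, and whether same-numbered lists shared a batch was not tested. With the replicate block the difference was −0.29 (exact sign-flip p = 1), from −0.98 in replicate 1 and 0.40 in replicate 2.

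Dense windows with BRWD1 in both lists made up 96.2% in windows of 2 Mb, 8.16% with peaks scored 10 or more and 45.9% with peaks scored above the median. The mean share of BRWD1 peaks found again, 9.30%, was 44.5% and 22.7% under the last 2 filters. The share of H3K9Ac peaks with BRWD1 was 0.742% with BRWD1 peaks scored 10 or more. The rule took 298 windows at a threshold of 10, 36 at 20, 26 windows of 2 Mb, and 120 to 276 when an H3K9Ac list was left out (276 without replicate 1). An alternative chosen after seeing the data, 20 or more merged H3K9Ac regions, took 117 windows with ratios of 1.55 for BRWD1 and 1.84 for H3S10pK14Ac. H3S10pK14Ac replicate 1 has few peaks, read depths are unknown, and 2 lists per antibody allow no p under 1 in 3.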
